A study of Mus musculus with 24 samples.

Results

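Skin of mice with a graft-versus-host form of scleroderma that had been treated with an antibody to IFNAR1, one subunit of the receptor for type I interferons, was compared with skin of syngeneic recipients at day 28. The comparison rests on 8 of the 24 arrays of the series, chosen by their titles: 4 of anti-IFNAR1 skin and 4 of syngeneic (control) skin. All mice were female and RAG2-/-, so the recipients themselves lack the recombinase that assembles antigen receptors, and do not make T or B cells of their own. The anti-IFNAR1 mice had received B10.D2 splenocytes and the antibody (GVH-SSc), and the syngeneic mice had received Balb/c splenocytes, with no antibody named. Donor strain and disease differ together between these groups, so their parts in any change, lymphocyte genes included, cannot be told apart. A further day 28 group of 4 arrays, B10.D2 splenocytes with an isotype antibody, shows the disease without the blockade. Shaved dorsal scapular skin was taken, ages and antibody doses are not given in the sources used here, and nothing in the labels says whether each array is a different animal. The p-values therefore measure the spread between arrays, which may be technical.

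Type I interferons act through a receptor of the IFNAR1 and IFNAR2 chains and induce antiviral genes such as the Ifit, Oas and Mx families. Interferon gamma, made mainly by activated T and NK cells, uses another receptor and induces the chemokines Cxcl9 and Cxcl10, the IRG and GBP GTPases and the antigen presentation machinery. The genes that respond to the 2 kinds of interferon overlap widely. An antibody against IFNAR1 blocks the first route at its receptor and leaves the interferon gamma receptor free, and the comparison with syngeneic skin asks what of the late disease was still measurable.

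Values are given as log2(intensity + 16), where probe sets without signal lie between about 4 and 5, and changes are differences on that scale ± SE with 4 arrays per group. A gene is called when limma's Benjamini-Hochberg adjusted p over 18193 genes is under 0.05. Keratin genes of basal and suprabasal epidermis, and dermal collagen, were strong on all 8 arrays, with Krt5 between 14.45 and 14.80, Krt10 between 15.67 and 15.94 and Col1a2 between 12.80 and 14.60, as the skin label says. Rag2 lay between 4.52 and 4.68 and Rag1 between 4.40 and 4.45, near the background in both groups. The position of the Rag2 probe set relative to the deletion was not examined, so its level does not check the genotype. Ifnar1 RNA, which an antibody against the protein need not alter, differed by -0.00 ± 0.29 from syngeneic skin, and Ifnar2 by 0.31 ± 0.34.

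Several arrays stood apart. The 2 arrays labelled syngeneic day 14 replicates 1 and 2 had a mean of the interferon gamma-inducible genes of 10.75 and 9.62, against 7.38 and 7.65 in replicates 3 and 4. Their values were near those of anti-IFNAR1 day 14 skin (9.71 to 10.60). Other lists did not all place them there. Their mean of the cytotoxic lymphocyte list was 7.31 and 6.50, against 6.47 to 7.07 in anti-IFNAR1 day 14 skin. Their mean of the T cell list was 5.93 and 5.63, below the 6.14 to 6.65 of that skin. The sources used here do not settle whether the labels of these 2 arrays are right. They belong to no group compared here, but the fit of all 24 arrays takes its spread from every group: the SD of Cxcl9 was 2.87 in syngeneic day 14 skin and 0.42 in anti-IFNAR1 day 28 skin. For this reason 2 further fits, chosen after the data had been seen, are given beside the first, one of the 12 day 28 arrays and one of 22 arrays without those 2. Both leave out those 2 arrays, which were picked by the level of the interferon gamma-inducible genes. For these genes the counts of the 2 further fits are therefore not independent support. The same 2 arrays were high for the class I presentation list (12.27 and 12.07, against 10.99 and 10.67 in replicates 3 and 4). They were also high for the cytotoxic lymphocyte list, at 5.16 and 5.33 in replicates 3 and 4. Fcgr4, an Fc receptor gene, had an SD of 2.26 in syngeneic day 14 skin. Calls of the 2 further fits for such genes are not independent support either. Hair follicle genes were high in anti-IFNAR1 replicate 2 (list mean 13.11, against 4.96 to 5.58 in the other 3) and in syngeneic replicates 3 and 4 (11.73 and 10.70). A sign of RNA integrity is the log2 ratio of the 3' over the 5' control probe set for Gapdh. Among the 8 arrays compared it was highest in syngeneic replicate 3 (4.10) and anti-IFNAR1 replicate 1 (3.85). Isotype day 28 replicate 1 was at 4.59, and the highest of the 24 arrays was syngeneic day 14 replicate 4 (6.36).

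Lymphocyte genes carried the differences that passed the test with all 24 arrays. In that fit 6 genes were called, all higher in anti-IFNAR1 skin (0.0330% of 18193 genes), and none was called lower, while 370 genes had an unadjusted p under 0.05. The 6 were Igha, Jchain, Ms4a4b, Cd3d, Cxcr6 and Trav9d-3. The median change over all genes was -0.001. On 243 genes (1.34%) all 4 anti-IFNAR1 arrays lay above all 4 syngeneic arrays, and on 68 (0.374%) all 4 lay below.

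Cd3d, the delta chain of CD3, through which the T cell receptor signals, read 4.40, 4.26, 4.40 and 4.40 on the syngeneic arrays and 6.59, 5.74, 5.88 and 6.04 on the anti-IFNAR1 arrays. The groups did not overlap, and the change of 1.70 ± 0.23 (adjusted p 0.0085) kept an adjusted p under 0.05 when any 1 of the 8 arrays was left out. In isotype skin Cd3d read 8.41, 8.45, 8.51 and 8.13, above every anti-IFNAR1 array, and anti-IFNAR1 skin fell by 2.31 from it (adjusted p 2e-05). From bulk skin, fewer T cells and less RNA per cell cannot be told apart.

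Ms4a4b, a tetraspan membrane protein of T cells, read 4.98 to 5.53 in syngeneic skin and 8.36, 8.77, 8.88 and 8.56 in anti-IFNAR1 skin, a change of 3.41 ± 0.50 (adjusted p 0.015). Cxcr6, a chemokine receptor of tissue-resident and activated T cells, read 4.82 to 5.25 in syngeneic skin and 6.12 to 6.68 in anti-IFNAR1 skin, a change of 1.47 ± 0.25 (adjusted p 0.033). Trav9d-3 is a variable segment of the T cell receptor alpha chain with close copies, so its signal may be shared among them. It read 5.14 to 5.46 in syngeneic skin and 6.38 to 6.73 in anti-IFNAR1 skin, a change of 1.20 ± 0.20 (adjusted p 0.030). For each of the 3 the 4 arrays of one group lay clear of the 4 of the other, and the isotype arrays lay higher still. Against isotype, anti-IFNAR1 skin fell by 2.46 for Ms4a4b (adjusted p 0.0028), by 2.36 for Cxcr6 (adjusted p 4.2e-05) and by 1.73 for Trav9d-3 (adjusted p 4.6e-05).

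Igha and Jchain, both transcribed in plasma cells, had the largest changes of the 6. Jchain, which joins polymeric antibodies, read 4.55, 4.27, 4.86 and 4.52 on the syngeneic arrays and 8.50, 8.30, 7.38 and 9.44 on the anti-IFNAR1 arrays, a change of 3.85 ± 0.59 (adjusted p 0.021). Igha, the constant region of IgA heavy chains, read 6.83, 6.89, 7.11 and 7.18 in syngeneic skin and 11.17, 11.53, 8.82 and 12.54 in anti-IFNAR1 skin, a change of 4.01 ± 0.67 (adjusted p 0.033). Neither gene overlapped between the groups, but the anti-IFNAR1 arrays ranged widely, with replicate 3 the lowest for both. Anti-IFNAR1 arrays overlapped the isotype arrays, which ran from 8.21 to 11.51 for Jchain and from 12.36 to 14.14 for Igha. Jchain fell by 2.01 from isotype skin (adjusted p 0.029), and Igha differed by -2.05 (adjusted p 0.0504). Of the 12 measured genes of the B and plasma cell list, only Jchain was called over 24 arrays (background 0.0330%). It was also the only one with no overlap (background 1.34% above), and the median of that list was 0.00. Cd79a, a signalling chain of the B cell receptor on the same list, stayed between 4.39 and 4.41 on all 8 arrays.

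**Figure D1:**
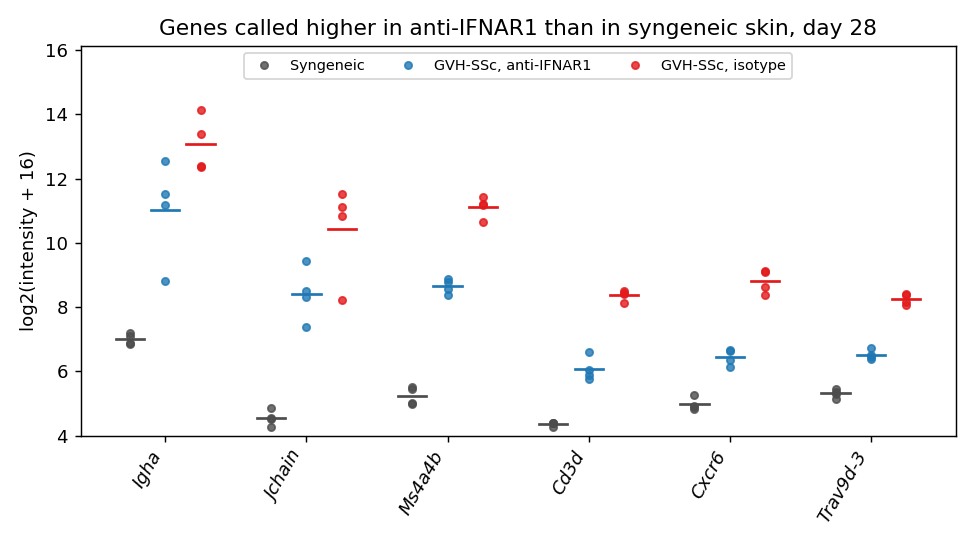
Level of the 6 called genes on each array at day 28, as log2(intensity + 16); points are arrays, bars are means of 4 arrays, and the colours are the 3 groups. For each gene the 4 anti-IFNAR1 arrays lie above the 4 syngeneic arrays; Cd3d, Ms4a4b, Cxcr6 and Trav9d-3 also lie below all isotype arrays, while Igha and Jchain overlap them.

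The 5 genes other than Cd3d were sensitive to single arrays. With each of the 8 arrays left out in turn, Ms4a4b stayed called in 4 of 8 fits, Jchain in 2, and Igha, Cxcr6 and Trav9d-3 in 1 each. In the fit of the 12 day 28 arrays, Igha and Jchain were not called (adjusted p 0.11 each) and the other 4 were. Without the 2 syngeneic day 14 arrays, all 6 were called. Without the arrays of high hair follicle signal, which leaves 3 anti-IFNAR1 and 2 syngeneic arrays at day 28, none of the 6 was called and Cd3d had an adjusted p of 0.057, although its change of 1.84 was no smaller. That fit called 5 other genes, which are named here because they are few: Mogat1 was higher, and Akr1cl, Slc2a10, Pcdhb7 and Sik1 were lower.

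Interferon gamma-inducible genes had the highest median change of the 39 lists examined. The median over the 19 measured genes was 1.83, and 15 of the 19 had all anti-IFNAR1 arrays above all syngeneic arrays (background 1.34%). With all 24 arrays none was called in either direction. In the fit of the 12 day 28 arrays 9 of 19 were called higher (background 0.187%), and without the 2 syngeneic day 14 arrays 13 of 19 were (background 0.220%). Over all genes these 2 fits called 35 and 41 genes, of which 1 was lower in each (0.00550%).

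Cxcl9, a chemokine that draws CXCR3-bearing T cells, read 5.24, 6.23, 6.44 and 7.48 on the syngeneic arrays and 10.39, 11.27, 10.39 and 10.75 on the anti-IFNAR1 arrays. All 4 anti-IFNAR1 arrays lay clear of syngeneic skin and below the isotype arrays, which read 12.62 to 13.83. The change was 4.35 ± 0.90, with an adjusted p of 0.17 over 24 arrays and 0.0034 over the 12 day 28 arrays. Cxcl10, a ligand of the same receptor, read 5.90 to 6.76 in syngeneic, 8.72 to 9.61 in anti-IFNAR1 and 11.83 to 12.90 in isotype skin. Cxcl11, the remaining ligand, read 4.67 to 4.72, 6.68 to 7.98 and 10.50 to 11.26 in the same order. For all 3 ligands the 3 groups took the same order with no overlap. Their changes from syngeneic skin were 2.49 ± 0.70 for Cxcl10 and 2.61 ± 0.67 for Cxcl11, called over the 12 day 28 arrays (adjusted p 0.0085 and 0.0034) and not over all 24 (0.76 and 0.51).

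Defence against intracellular microbes involves the immunity-related GTPases. Igtp, one of them, read 8.74, 9.14, 9.08 and 9.05 in syngeneic skin and 12.41, 11.88, 11.99 and 12.35 in anti-IFNAR1 skin, a change of 3.16 ± 0.64 with an adjusted p of 0.17 over 24 arrays and 0.0002 over 12. Iigp1 read 8.77 to 9.99 in syngeneic and 12.07 to 12.72 in anti-IFNAR1 skin, a change of 2.97 ± 0.62 with adjusted p of 0.18 and 0.010. Gbp2, a guanylate-binding protein of the same defence, read 9.76 to 10.35 and 11.65 to 12.48, a change of 2.11 ± 0.60 with adjusted p of 0.82 and 0.011. None of the 3 overlapped between the groups. Isotype skin was at 12.94 to 13.76 for Igtp, so the anti-IFNAR1 arrays lay 3.16 above syngeneic and 1.22 below isotype on average. Ubd, a ubiquitin-like modifier induced by interferon gamma and outside the list, was named after its values were seen: it read 4.62 to 4.93 in syngeneic, 8.30 to 8.59 in anti-IFNAR1 and 10.27 to 10.96 in isotype skin. Not every gene of the list followed. Ciita, the master regulator of class II genes, differed by 0.20 ± 0.29, Ido1, a tryptophan-degrading enzyme, by 0.19, and Nos2 and Socs1 by -0.00 each.

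Ifng itself, the gene of interferon gamma, read 4.53, 4.54, 4.62 and 4.51 in syngeneic skin and 5.28, 4.99, 4.82 and 4.96 in anti-IFNAR1 skin. The groups did not overlap but both lay near the background, and the change was 0.46 ± 0.44 (adjusted p 1). In isotype skin Ifng read 7.25 to 7.57, and anti-IFNAR1 skin fell by 2.46 from it (adjusted p 0.0013).

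The promoters of 4 of these genes are shown because they carry the motifs through which the 2 interferons are known to act. From the interferon gamma list these are 2 genes that stayed above syngeneic skin (Igtp, Gbp2), and from the type I list Ifit1 and Oas3. Ifit1 arrays overlapped syngeneic skin, while for Oas3 all 4 anti-IFNAR1 arrays lay above all syngeneic arrays. Each line gives the 120 bases before the start of the gene, 5′ to 3′ on the gene's strand, from RefSeq on GRCm38.p6. Capitals mark the core of the interferon-stimulated response element, GAAA, any 2 bases, GAAA on either strand, and in Igtp also the core of the STAT site, TTCNNNGAA, which is its own reverse complement. The windows are chr11:58199436-58199555 (+) for Igtp, chr3:142620543-142620662 (+) for Gbp2, chr19:34640769-34640888 (+) for Ifit1 and chr5:120777660-120777779 (-) for Oas3.
Igtp: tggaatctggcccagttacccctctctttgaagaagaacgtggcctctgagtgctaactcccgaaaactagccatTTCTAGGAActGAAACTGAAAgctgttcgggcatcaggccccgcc
Gbp2: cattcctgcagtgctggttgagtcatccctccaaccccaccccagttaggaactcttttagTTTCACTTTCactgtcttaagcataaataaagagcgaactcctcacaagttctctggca
Ifit1: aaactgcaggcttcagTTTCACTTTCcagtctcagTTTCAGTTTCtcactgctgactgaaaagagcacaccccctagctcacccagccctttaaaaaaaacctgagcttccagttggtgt
Oas3: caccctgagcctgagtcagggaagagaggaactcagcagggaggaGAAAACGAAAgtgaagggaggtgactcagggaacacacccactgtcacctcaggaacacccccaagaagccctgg

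In windows of 250 bases before to 50 after the start, the first motif was present for 8 of the 12 interferon gamma-inducible genes with a window (66.7%) and for 12 of 23 type I genes (52.2%), against 4% of all 27025 genes with one. TTCNNNGAA was present for 5 of 12 (41.7%) and 5 of 23 (21.7%), against 9.6% of all. The 2 motifs were found together in 149 of 32851 windows and overlapped in 24 of them. The remaining listed genes had no window in the table. These matches describe the letters of the window and do not show that a factor binds there.

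No type I interferon-inducible gene differed from syngeneic skin past the test. Of 34 measured, none was called in either direction in any of the 3 fits, and the median change was 0.17. Ifit1, an antiviral RNA-binding protein, read 7.39, 9.06, 7.55 and 7.63 in syngeneic skin and 9.53, 8.33, 7.18 and 7.29 in anti-IFNAR1 skin, so the groups overlapped. Its change was 0.18 ± 0.54, with a 95% interval of -0.96 to 1.31. Mx1, an antiviral GTPase, read 4.69 to 5.24 and 4.69 to 5.19, a change of -0.02 ± 0.47. Irf7, the factor that amplifies type I interferon, differed by 0.13 ± 0.44, and Oas2, an RNA sensor, by -0.10 ± 0.48. In isotype skin 24 of the 34 were called higher than in syngeneic skin (background 6.66%), with a median of 1.47. Against isotype 21 of the 34 were called lower in anti-IFNAR1 skin (background 4.89%) and none higher, with a median of -1.49. The 2 day 28 comparisons with syngeneic skin share the syngeneic arrays.

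Members of the type I list did not all sit together. All 4 anti-IFNAR1 arrays lay above all syngeneic arrays for 6 of the 34 (background 1.34%), namely Oas3, Irf9, Zbp1, Xaf1, Herc6 and Parp14. They lay below all syngeneic arrays for 2 of the 34 (background 0.374%), Slfn4 and Oasl1. Zbp1, a sensor of Z-form nucleic acids, read 5.61 to 6.85 in syngeneic and 7.24 to 8.25 in anti-IFNAR1 skin, a change of 1.45 ± 0.52 (adjusted p 1). Slfn4, a schlafen gene of myeloid cells, read 7.95, 8.49, 5.96 and 7.42 in syngeneic skin and 5.46, 5.34, 5.86 and 5.91 in anti-IFNAR1 skin. The groups did not overlap, but the gap between the nearest arrays was small, and the change of -1.81 ± 0.54 had an adjusted p of 0.93. Oasl1, an oligoadenylate synthetase-like protein, read 4.71 to 6.52 in syngeneic and 4.55 to 4.65 in anti-IFNAR1 skin, a change of -0.88 ± 0.41 (adjusted p 1). Both fell against isotype, Slfn4 by 4.35 (adjusted p 7.7e-05) and Oasl1 by 1.71 (adjusted p 0.0091).

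**Figure D2:**
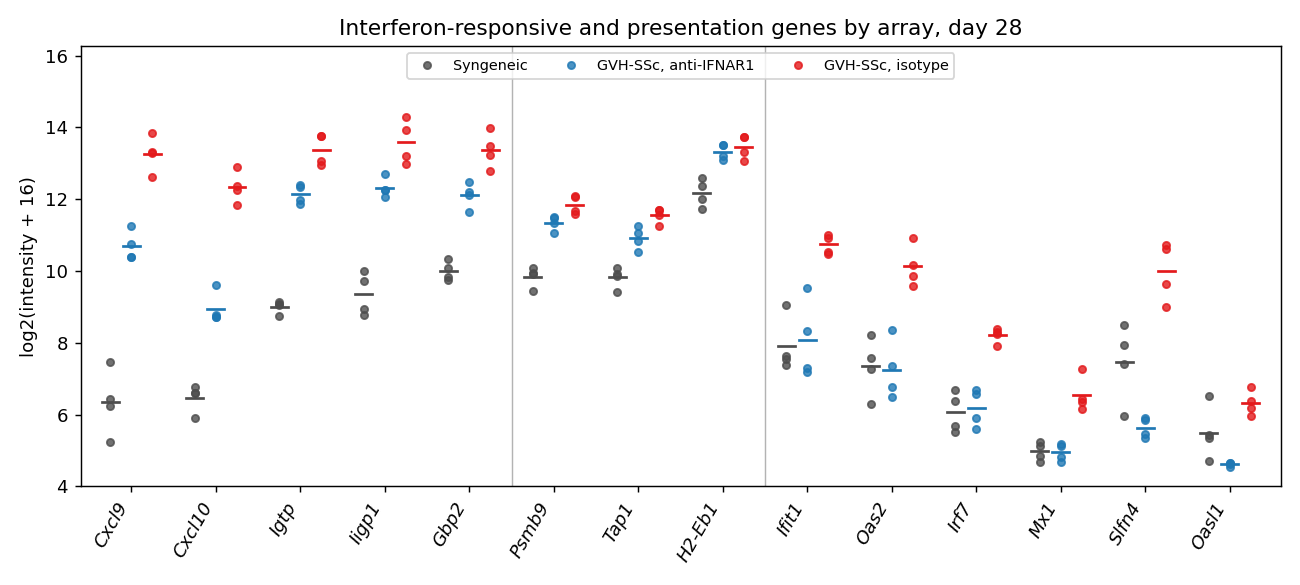
Interferon gamma-inducible genes (left), antigen presentation genes (middle) and type I interferon-inducible genes (right) on each day 28 array, as log2(intensity + 16); points are arrays and bars are means of 4. Cxcl9, Cxcl10, Igtp, Iigp1 and Gbp2 lie above syngeneic skin on every anti-IFNAR1 array, Ifit1, Oas2, Irf7 and Mx1 overlap it, and Slfn4 and Oasl1 lie below it.

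How far the interferon gamma-inducible genes were from untreated disease depended on the fit. The direct comparison of anti-IFNAR1 with isotype skin had a median of -1.25 over the 19 genes. With all 24 arrays 2 of 19 were called lower (background 4.89%), namely Cxcl10 and Cxcl11. In the fit of the 12 day 28 arrays 12 were called lower (background 4.90%). The same number were called without the 2 syngeneic day 14 arrays (background 5.66%), which were picked by the level of these genes. Cxcl9 differed by -2.56, with an adjusted p of 0.067 over 24 arrays and 0.0058 over 12. Gbp6 and Irgm2, a further GBP and IRG, were not called in any of the 3 fits, at -0.79 and -0.67.

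**Figure D3:**
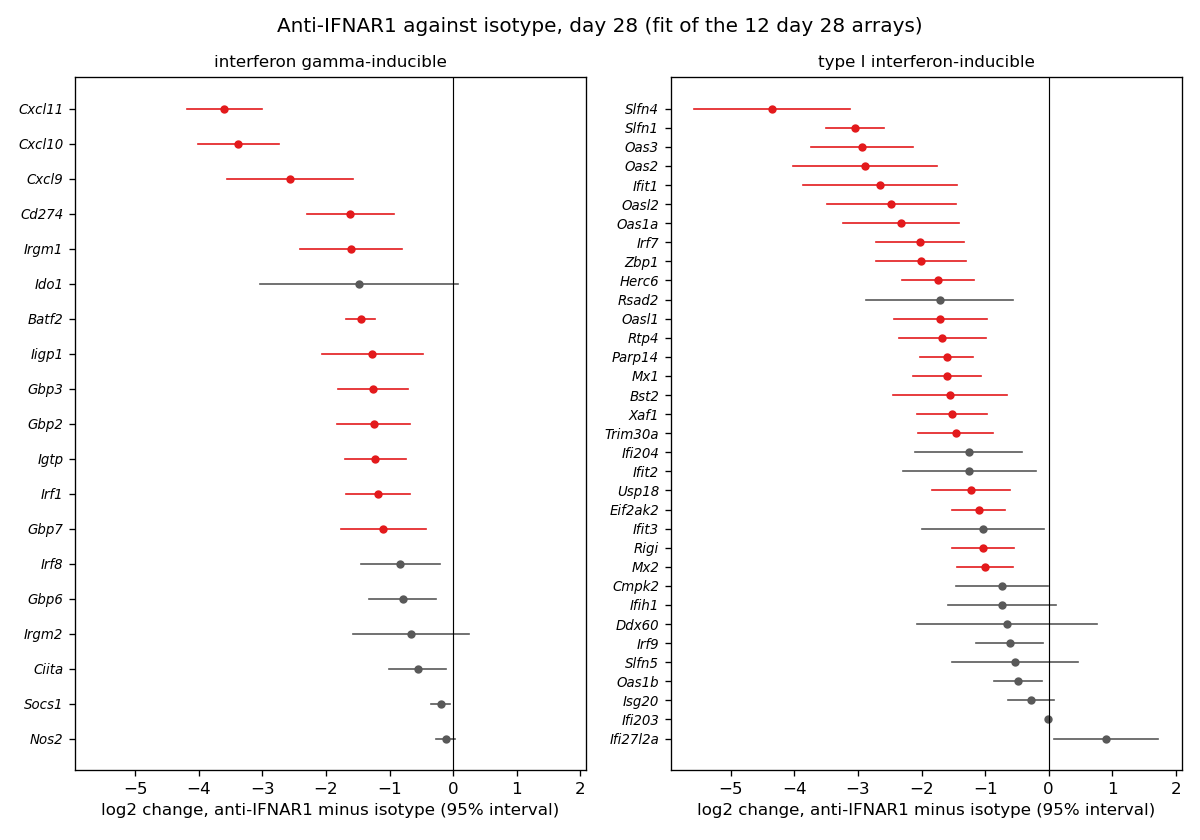
Anti-IFNAR1 minus isotype at day 28 for each measured gene of the interferon gamma-inducible list (left) and the type I list (right), as a log2 change with its 95% interval from the fit of the 12 day 28 arrays; red marks an adjusted p under 0.05. Of the interferon gamma-inducible genes 12 of 19 are red and of the type I genes 21 of 34.

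Antigen presentation genes lay above syngeneic skin by smaller amounts. Of 15 class I genes, 10 had no overlap between the groups, all with anti-IFNAR1 skin above (background 1.34%), and the median change was 0.71. None was called over 24 arrays, 4 were called higher over the 12 day 28 arrays (background 0.187%) and 5 without the 2 syngeneic day 14 arrays (background 0.220%). Those 2 arrays, absent from both further fits, were high for this list too. Psmb9, a subunit of the immunoproteasome that cuts peptides for class I, read 9.91, 10.09, 9.46 and 9.93 in syngeneic skin and 11.47, 11.05, 11.51 and 11.34 in anti-IFNAR1 skin, a change of 1.49 ± 0.36 (adjusted p 0.46 over 24 arrays and 0.0085 over 12). Its partner Psmb8 differed by 1.46 ± 0.38, and Tap1, which carries the peptides into the endoplasmic reticulum, by 1.10 ± 0.29. Against isotype, Psmb9 differed by -0.51 (adjusted p 0.46) with a 95% interval of -1.27 to 0.25. B2m, the light chain of class I, differed from syngeneic skin by 0.34 ± 0.25.

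Class II genes had a median change of 0.57 over 11 measured, and 5 did not overlap, all with anti-IFNAR1 skin above (background 1.34%). H2-Eb1, a class II beta chain, read 11.72 to 12.59 in syngeneic and 13.09 to 13.51 in anti-IFNAR1 skin, a change of 1.16 ± 0.34 (adjusted p 0.85). Isotype skin read 13.07 to 13.74 for it, overlapping the anti-IFNAR1 arrays, and the difference between them was -0.14 with a 95% interval of -0.84 to 0.57. Ctss, the cathepsin that trims the invariant chain, read 11.22 to 12.28 and 12.98 to 13.15 and fell against isotype by 1.68 (adjusted p 0.0021).

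Of the 19 measured genes of the T cell list, which does not hold Ms4a4b, Cxcr6 or Trav9d-3, Cd3d alone was called over 24 arrays (background 0.0330%), and the median change was 0.18. Cd3d and Cd2, an adhesion receptor of T cells, were called over the 12 day 28 arrays (background 0.187%) and without the 2 syngeneic day 14 arrays (background 0.220%). In isotype skin 16 were called higher (background 6.66%) with a median of 1.17. Anti-IFNAR1 arrays lay above all syngeneic arrays for 10 of the 19 (background 1.34%). Cd8a, which helps cytotoxic T cells read class I molecules, had levels of 5.30, 5.87, 5.58 and 4.51 in syngeneic skin and 7.04, 6.05, 6.66 and 6.09 in anti-IFNAR1 skin, a change of 1.14 ± 0.27 (adjusted p 0.40). Cd4, the co-receptor of helper T cells, read 4.41 to 4.51 and 4.55 to 5.23, a change of 0.29 ± 0.41 (adjusted p 1), and 6.27 to 7.85 in isotype skin. The anti-IFNAR1 and syngeneic arrays did not overlap for Cd4 but came close. Foxp3, the regulatory T cell factor, lay between 4.42 and 4.44 on all 8 arrays. Against isotype 14 of the 19 T cell genes were called lower (background 4.89%) and none higher.

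Cytotoxic genes differed among themselves. Of 15 measured, none was called over 24 arrays, 3 were called over the 12 day 28 arrays (Gzmb, Nkg7 and Ccl5, against a background of 0.187%), and 8 lay above syngeneic skin with no overlap (background 1.34%). Gzma, a granule protease, read 4.51, 4.68, 4.67 and 4.74 in syngeneic skin, 8.19, 7.65, 8.09 and 8.57 in anti-IFNAR1 skin and 7.48, 8.99 and 9.47 in isotype replicates 2 to 4, with isotype replicate 1 lower. Anti-IFNAR1 arrays were clear of syngeneic skin and inside the wide isotype range. The change from syngeneic was 3.47 ± 0.87 (adjusted p 0.50 over 24 arrays and 0.20 over 12), and that from isotype was 0.26 with a 95% interval of -1.55 to 2.08. The positive sign of the latter rests on isotype replicate 1, since replicates 2 to 4 alone have a mean above that of anti-IFNAR1 skin. Isotype replicate 1 also had the highest Gapdh ratio at day 28 (4.59), and the part of RNA integrity in its Gzma value was not tested. Gzmb, a second granule protease, differed by 3.04 ± 0.67 (adjusted p 0.23 over 24 arrays and 0.011 over 12) and differed from isotype by -1.18 ± 0.67 (adjusted p 0.31). Nkg7, a granule membrane protein, read 4.34 to 4.63 and 6.73 to 7.20, a change of 2.39 ± 0.45 (adjusted p 0.11 over 24 arrays), and fell by 2.20 against isotype (adjusted p 0.0031). Gzmk, a granzyme of memory T cells, read 5.15 to 5.18 in syngeneic, 5.60 to 6.36 in anti-IFNAR1 and 7.84 to 9.65 in isotype skin, and fell by 2.89 against isotype (adjusted p 4.2e-05). Ccl5, a T cell chemokine, differed by 3.12 ± 0.63 from syngeneic skin and fell by 3.40 against isotype (adjusted p 0.0017). Itgae, the integrin of epidermal resident T cells outside these lists and named after its values were seen, differed by 1.25 ± 0.35 from syngeneic skin (adjusted p 0.75) and differed from isotype by 0.25 ± 0.35.

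Macrophage and monocyte genes had a median change of 0.61 over 28, with none called over 24 arrays and 6 not overlapping, all above (background 1.34%). Isotype skin had 23 of the 28 called higher (background 6.66%) with a median of 2.23, and 17 of the 28 were lower in anti-IFNAR1 than in isotype skin (background 4.89%). Fcgr4, an activating Fc receptor of monocytes and macrophages, read 4.36, 4.42, 4.39 and 4.36 in syngeneic skin and 6.87, 6.95, 7.01 and 6.39 in anti-IFNAR1 skin, with no overlap. Its change was 2.42 ± 0.71, with an adjusted p of 0.88 over 24 arrays and 6.4e-05 over 12. Of the 28 list genes only 1 was called higher over the 12 day 28 arrays (background 0.187%), and 1 without the 2 syngeneic day 14 arrays (background 0.220%). Cd68, a general macrophage marker, read 7.80 to 9.16 and 8.71 to 9.15, a change of 0.43 ± 0.37.

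Chemokines outside the CXCR3 ligands split in the same way. Ccl8, a monocyte and T cell attractant, read 10.90, 12.32, 11.09 and 12.69 in syngeneic and 13.08, 13.50, 13.30 and 13.66 in anti-IFNAR1 skin, with no overlap, a change of 1.63 ± 0.42 (adjusted p 0.51). Ccl1, the ligand of CCR8, read 4.66 to 4.83 and 6.14 to 7.16, a change of 1.86 ± 0.44 (adjusted p 0.40 over 24 arrays and 0.010 over 12). Ccl2, the main monocyte attractant, overlapped and differed by 0.29 ± 0.66. Cxcl2, which draws neutrophils, overlapped at 4.43 to 6.67 and 4.35 to 5.64, and read 8.94 to 11.90 in isotype skin. Over the list of 25 chemokines none was called over 24 arrays, and the median was 0.22. In the fit of the 12 day 28 arrays 1 was called higher (background 0.187%), and 1 without the 2 syngeneic day 14 arrays (background 0.220%). Of the 25, 4 did not overlap, all with anti-IFNAR1 skin above (background 1.34%).

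No neutrophil or epidermal stress gene differed from syngeneic skin past the test. The 16 neutrophil genes had a median change of -0.00 with none called, and 13 of the 16 were called lower than in isotype skin (background 4.89%). S100a9, a calprotectin chain of neutrophils and stressed keratinocytes, read 5.91 to 9.54 in syngeneic, 6.41 to 8.17 in anti-IFNAR1 and 12.58 to 14.74 in isotype skin, and fell by 6.47 against isotype (adjusted p 0.00068). The 25 epidermal stress genes had a median change of 0.17 from syngeneic skin with none called, against a median of 3.65 and 20 called higher in isotype skin (background 6.66%). Of the 25, 18 were called lower than in isotype skin (background 4.89%). Krt16, a wound keratin, read 8.69, 6.86, 8.02 and 7.07 in syngeneic skin and 9.40, 10.08, 8.39 and 8.99 in anti-IFNAR1 skin, which overlap. Its change of 1.55 ± 0.95 had a 95% interval of -0.43 to 3.54, while isotype skin read 14.93 to 16.12. Krt6b, its partner, differed by 1.53 ± 1.69 with an interval of -2.01 to 5.07. For this gene the interval is wide enough to hold a large residual rise. Sprr2d, a cornified envelope precursor, read 4.35 to 5.52 and 4.80 to 5.29, and 11.39 to 13.72 in isotype skin. Stfa3, a cysteine protease inhibitor, differed by 2.68 (95% interval 0.58 to 4.78, adjusted p 1) with 3 of 4 anti-IFNAR1 arrays above all syngeneic arrays, and Saa3, an acute-phase protein, by 1.92 ± 0.77 (adjusted p 1).

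No fat or dermal gene of these lists was called against syngeneic skin over 24 arrays. The 20 adipocyte genes had a median change of 0.35, none called, while isotype skin had 16 called lower (background 9.69%), with a median of -1.53. Against isotype 18 of the 20 were called higher in anti-IFNAR1 skin (background 8.42%). Lep, the adipokine leptin, read 6.83, 7.13, 7.62 and 8.42 in syngeneic, 7.87, 6.07, 6.63 and 7.20 in anti-IFNAR1 and 4.75, 4.44, 4.61 and 4.52 in isotype skin. Both other groups lay clear of isotype skin, and the rise against it was 2.36 ± 0.47 (adjusted p 0.0027). Scd1, the stearoyl-CoA desaturase of fat and sebaceous glands, differed by 0.30 ± 0.41 from syngeneic skin and rose by 2.80 against isotype (adjusted p 0.0003). Agpat2, an enzyme of triglyceride synthesis outside the list and named after its values were seen, was higher than both other groups on every array: it read 9.31 to 10.64 in syngeneic, 10.70 to 11.91 in anti-IFNAR1 and 8.53 to 9.43 in isotype skin. Its change from syngeneic skin of 1.27 ± 0.42 had an adjusted p of 1.

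Fap, a serine protease of dermal fibroblasts, read 9.52 to 9.97 in syngeneic, 9.42 to 10.21 in anti-IFNAR1 and 7.47 to 8.22 in isotype skin, and rose by 2.02 against isotype (adjusted p 0.00028). The 17 fibroblast genes had a median change of -0.13 from syngeneic skin with none called. The 18 collagen genes had a median of -0.19 with none called, and Col1a1, the main chain of fibrillar collagen, read 11.48 to 13.45 in syngeneic and 10.97 to 13.83 in anti-IFNAR1 skin, with isotype skin at 9.67 to 13.10. In the fit of the 12 day 28 arrays 1 gene was called lower, Rspo3, a Wnt amplifier of the dermis, named after its values were seen. It read 7.05, 6.71, 6.84 and 6.67 in syngeneic and 5.70, 5.79, 6.05 and 5.59 in anti-IFNAR1 skin, with no overlap, a change of -1.03 ± 0.30 (adjusted p 0.87 over 24 arrays and 0.011 over 12). In isotype skin it was lower still, at 4.68 to 5.11. The 21 skeletal muscle genes, from the panniculus under the skin, had a median change of 0.00 and none called, against 11 called lower in isotype skin (background 9.69%).

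**Figure D4:**
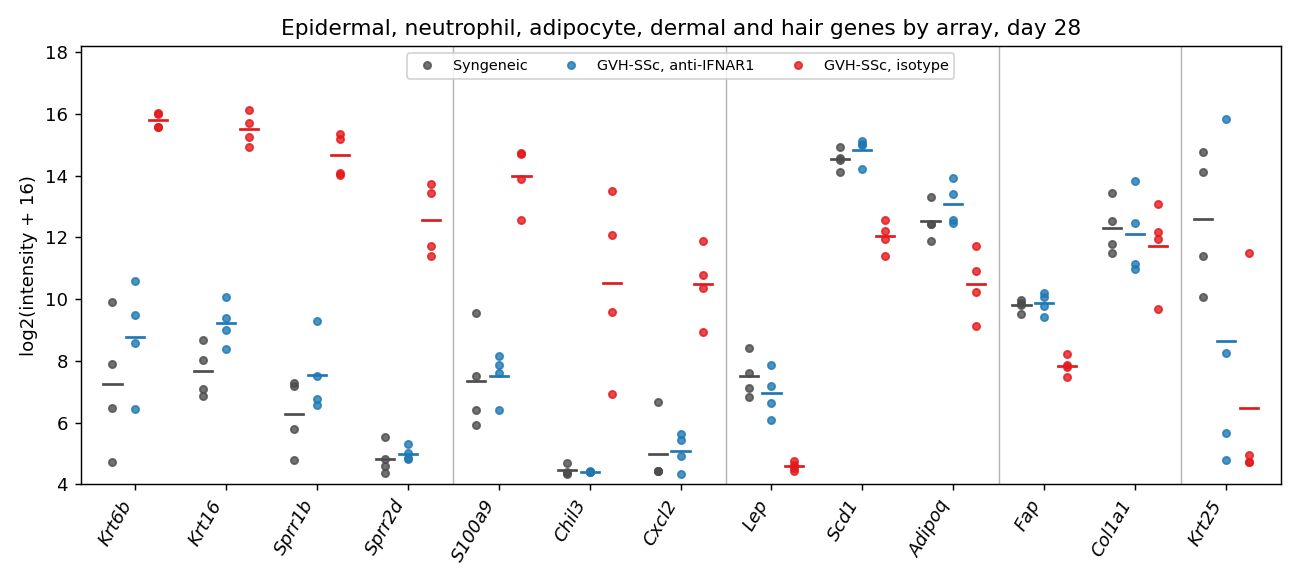
Epidermal, neutrophil, adipocyte, dermal and hair follicle genes on each day 28 array, as log2(intensity + 16); points are arrays and bars are means of 4. Anti-IFNAR1 arrays overlap the syngeneic arrays for all 13 genes shown, while isotype skin lies apart for the epidermal, neutrophil and adipocyte genes and for Fap, and overlaps for Col1a1 and Krt25.

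**Figure D5:**
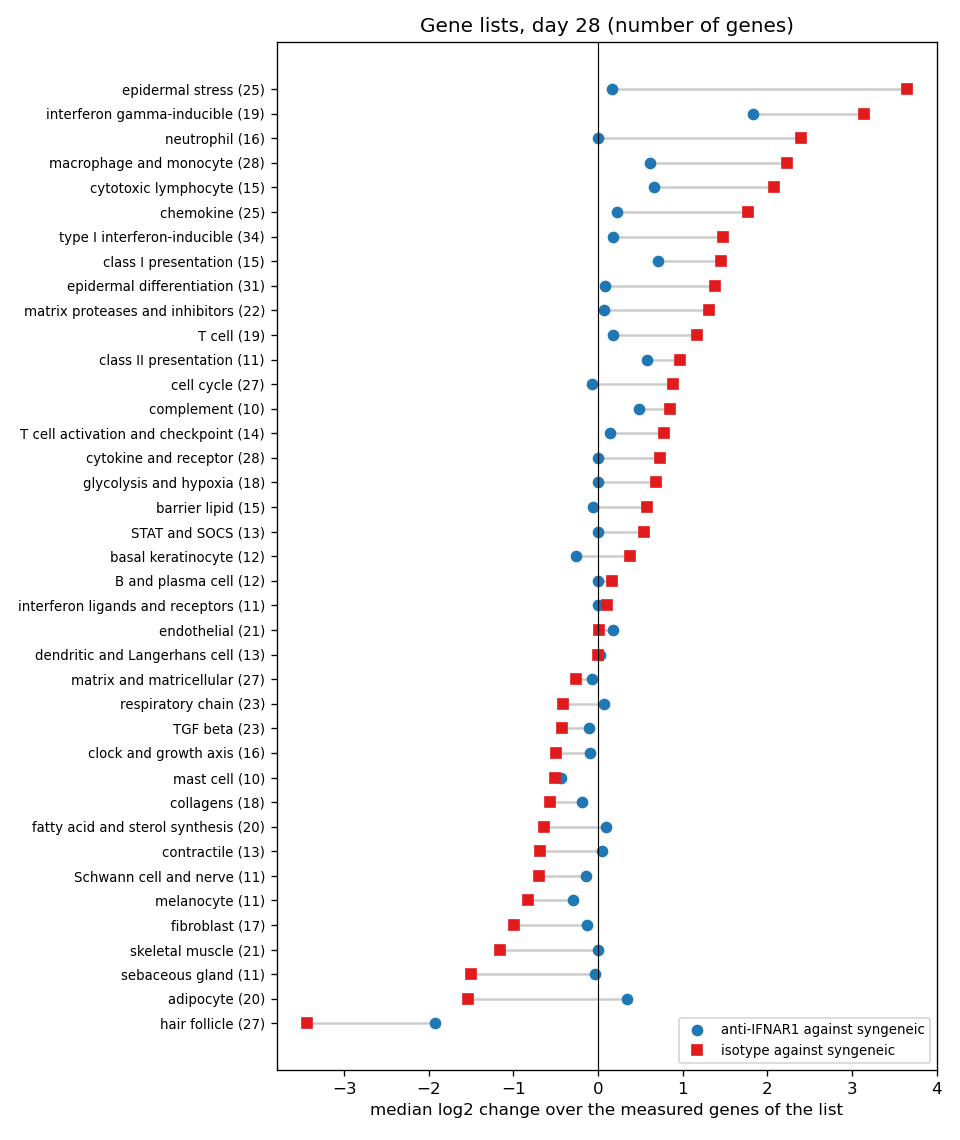
Median log2 change of each gene list at day 28 against syngeneic skin, for anti-IFNAR1 skin (circles) and isotype skin (squares), with the number of measured genes in brackets. The interferon gamma-inducible list has the highest anti-IFNAR1 median, 1.83, against 0.17 for epidermal stress and 0.17 for the type I list; both comparisons share the syngeneic arrays.

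Hair follicle genes had a median change of -1.93 over 27 with none called. The arrays of both groups were split, as described above, and without those of high hair follicle signal the median was -1.54. Krt25, an inner root sheath keratin, read 4.78, 15.85, 5.66 and 8.25 in anti-IFNAR1 and 11.40, 10.05, 14.76 and 14.13 in syngeneic skin. Without the arrays of high hair follicle signal, Igtp differed by 3.31 and Cxcl9 by 4.77 from syngeneic skin, with adjusted p of 0.73 and 0.64. The 27 cell cycle genes depended on those arrays. Over 24 arrays none was called in any of the 3 day 28 comparisons, with medians of -0.07 against syngeneic and -0.94 against isotype. Without the arrays of high hair follicle signal 18 of 27 were called lower against isotype (background 5.52%), 5 were called higher in isotype than in syngeneic skin (background 4.73%), and still none in anti-IFNAR1 against syngeneic skin.

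The change from syngeneic skin was also compared between day 14 and day 28. No gene was called for the difference between the days in the change from syngeneic skin, although 1005 genes had an unadjusted p under 0.05. The smallest adjusted p was 0.10, for Kcp, a secreted regulator of BMP signals, at -1.09 on day 14 and 0.28 on day 28. The interferon gamma-inducible genes had a median change of 1.33 at day 14 and 1.83 at day 28. The day 14 value and the test between days both contain the 2 high arrays labelled syngeneic described above, so neither is a clear measure of the change from syngeneic skin. No value was computed without them, because they were picked by the level of these same genes. On anti-IFNAR1 arrays the mean of the list was 9.71 to 10.60 at day 14 and 8.81 to 8.99 at day 28.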

How the data were processed

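The deposited values were probe set intensities from Affymetrix arrays, on a linear scale, and the authors' summarisation and normalisation steps are not described in the labels. Of 45101 probe sets, 34945 with 1 gene symbol were used, and the probe set of highest mean stood for each of 18193 genes (9010 had more than 1). Array medians were 14.8 to 17.7. The number of arrays limits the precision.

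Here log2(intensity + 16) was fitted with limma 3.58.1 in R 4.3.3, with 1 mean per group over 24 arrays (18 residual and 0.713 prior degrees of freedom). Two-sided p-values were adjusted by the Benjamini-Hochberg method over all genes, with a threshold of 0.05. The offset understates changes of dim genes. The groups, members and 39 gene lists were chosen with earlier results of these data known, so list counts are descriptions with no list test. Of 778 list genes 708 were measured, and the others were not analysed here. Genes were named by rule: the 15 largest called changes each way, up to 4 called genes per list or else its highest-mean gene, 5 called changes each way against isotype or the 3 smallest p between days, and Ifnar1, Ifnar2, Rag1, Rag2 and Ifng. Further list genes, and those said to be chosen after their values were seen, are named with their values. Alternatives were other scalings, offsets, filters, probe set summaries, array sets, weights, covariates and each array left out. The code was tested on simulated data.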

Additional observations from a re-analysis of the deposited data

Results flagged for a closer look

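Among the 60 named genes, 120 groups of 4 arrays were examined for 1 array far from the other 3, and 14 were found. Chance flags about 1 group in 20. Anti-IFNAR1 replicate 2, the array of high hair follicle signal, stood apart for 7 of them. It was low for Il33 at 8.68, Tgfbi at 12.59, Tpm2 at 13.99, Scd1 at 14.22, Ces1d at 10.79 and Rag2 at 4.52, and high for Krt17 at 14.03. The part of the hair follicle signal in these values was not tested. Anti-IFNAR1 replicate 1 was high for Rag1 at 4.44, near the background. In syngeneic skin, replicate 2 was low for Cd3d at 4.26 and for Krt17 at 13.05, replicate 4 was high for Epcam at 12.77, replicate 3 was high for Angptl7 at 4.59 and Rag2 at 4.68, and replicate 1 was high for Riiad1 at 4.58. No named gene passed the test of a difference between the days.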

How the results depend on the processing

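The count of genes called in anti-IFNAR1 against syngeneic skin, 6, depended on the processing. It was 3 with quantile normalization, 0 with an offset of 64, 10 with dim genes left out, 656 with array weights (435 higher and 221 lower), 1 with the hair follicle mean as a covariate, and 3 without arrays of a high Gapdh ratio. It was 34 in a fit of only the arrays compared, 35 over the 12 day 28 arrays and 41 without the 2 syngeneic day 14 arrays, the last 2 chosen after seeing the data. Of the 35 and 34, 27 genes were called in both. Without the arrays of high hair follicle signal 5 genes were called, 1 higher and 4 lower, against 6 higher and 0 lower with all arrays. Leaving out 1 array gave 1 to 9 genes. The replicate block, fitted although the numbers do not pair the samples (correlations of deviations 0.47, -0.62, -0.52 and -0.10), gave 2. Against isotype, the count of 2422 was 1539 with only the arrays compared, 4860 with array weights and 1340 with a 2-fold minimum, and 1668 to 2829 with 1 array left out. For isotype against syngeneic, 2973 became 5638 with array weights and 1662 with a 2-fold minimum, and 2179 to 2882 with 1 array left out. The count of 0 for the difference between days became 357 with array weights, 1 with the hair follicle covariate and 2 without the arrays of high hair follicle signal, and 0 to 3 with 1 array left out.

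Scaling moved the split of calls. Against isotype it was 1532 higher and 890 lower, 1161 and 1088 after quantile normalization, and 1001 and 1414 after centring of array medians. For isotype against syngeneic it was 1211 and 1762, then 1365 and 1421, then 1642 and 1263. Centring shifted the median of all genes by -0.18 against isotype, 0.15 for isotype against syngeneic and -0.16 for the difference between days. The cause of these changes was not tested. No named gene reversed while called. Dim genes, many of the T cell genes among them, are limited by signal over background.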

Other observations

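The 5 largest called rises of anti-IFNAR1 over isotype skin were in Cyp2g1, Ces1d, Rbp4, Acaa1b and Enpep. Cyp2g1, a cytochrome P450, read 10.03 to 11.50 in anti-IFNAR1, 10.40 to 11.31 in syngeneic and 4.83 to 6.40 in isotype skin, a rise of 5.36 (limma adjusted p 0.0014). Ces1d, a carboxylesterase of fat cells, rose by 4.04, Rbp4, the retinol carrier, by 3.81, Acaa1b, a peroxisomal thiolase, by 3.77 and Enpep, an aminopeptidase, by 3.75. Each of the 5 overlapped between anti-IFNAR1 and syngeneic skin, and their differences there ran from -0.30 to 0.66. Of 11 sebaceous gland genes 6 were higher than in isotype skin, of 20 fatty acid and sterol synthesis genes 10 were higher and 1 lower, and of 23 respiratory chain genes 9 were higher, against 8.42% of all genes called higher and 4.89% called lower. None of these was called against syngeneic skin.

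Single genes outside the pattern of their lists were noted after their values were seen. C6, a terminal complement component, read 5.57 to 6.74 in syngeneic, 7.34 to 7.98 in anti-IFNAR1 and 8.55 to 8.91 in isotype skin, with a difference of 1.60 ± 0.33 from syngeneic skin (limma adjusted p 0.17 over 24 arrays and 0.032 over the 12 day 28 arrays). Mucl1, a mucin-like secreted protein, read 5.76 to 7.90 in syngeneic and 4.62 to 4.75 in anti-IFNAR1 skin, near the background, a difference of -1.91 ± 0.86 (adjusted p 1).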
